A study of Mus musculus with 6 samples.

Results

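The miR-99/100 and miR-125 families were examined in small RNA-sequencing data from mouse embryonic stem cells (ESCs). The members were taken by name from the deposited table: mmu-miR-99a-5p, mmu-miR-99b-5p, mmu-miR-99b-3p, mmu-miR-100-5p, mmu-miR-125a-5p, mmu-miR-125a-3p and mmu-miR-125b-5p, which are 7 of its 1907 mature mouse miRNAs (the prefix mmu for mouse is left out below). The rule names members and sets no limit on a measured value. All 7 were among the 571 miRNAs abundant enough to be tested.

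The samples were 2 ESC lines from C57BL/6 mice, RB18 and RB20, each grown in 3 media on gelatin, with 1 library per line and medium. Serum medium held 15% fetal bovine serum. The 2i medium was serum free and combined 1 µM PD0325901, an inhibitor of the kinase MEK, with 3 µM CHIR99021, an inhibitor of the kinase GSK3. R2i medium, also serum free, combined 1 µM PD0325901 with 10 µM SB431542, which blocks TGF-β type I receptors, and all 3 media held 1000 U/ml of leukemia inhibitory factor. Both lines were derived in R2i and were moved from there to 2i or serum for at least 10 passages, so serum and 2i cells share a history in R2i. Each library came from a pool of independently grown cultures, so a medium's 2 libraries differ in line, pool and sequencing at once. Serum ESCs are heterogeneous cultures, whereas 2i and R2i hold cells close to the ground state, and 2i and R2i together are called the ground-state media here.

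Total counts ran from 1041858 (RB18 in R2i) to 3593356 (RB20 in R2i), and RB18 was the shallower line in each medium, so line and depth cannot be told apart. Levels are given as normalized CPM (counts per 1000000 counts of the library), adjusted with edgeR's TMM factors, and a level of 3 counts corresponded to between 0.858 and 2.57 CPM. Counts are reads rather than molecules, so the intervals below cover counting error only. The ESC label was checked with the miR-290 to miR-295 miRNAs, which mark pluripotent mouse cells and took between 24.0% and 35.0% of the counts in every library. In total RNA of whole cultures, fewer cells that express a miRNA and less of it per cell cannot be told apart.

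MicroRNAs are short RNAs cut from hairpin precursors. They pair with messenger RNAs mainly through their seed, bases 2 to 8, and lower the output of those messengers. Each hairpin can yield a 5p and a 3p strand, of which usually one is kept by Argonaute proteins and the other is degraded. The miR-99/100 and miR-125 genes lie beside let-7 genes in clusters that are conserved across animals. miR-100, miR-125 and let-7 are known as miRNAs of differentiated and late developmental cells, and in pluripotent cells the maturation of let-7 is blocked by LIN28. Known targets include Mtor for the miR-99/100 seed and Lin28a for the miR-125 seed.

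The mature sequences from RefSeq (GRCm38.p6) are printed first for the miR-99/100 seed, because they show how little separates members whose levels differed most. Capitals mark the seed, and all are read 5′ to 3′.
miR-99a-5p: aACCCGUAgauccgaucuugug
miR-100-5p: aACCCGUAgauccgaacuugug
miR-99b-5p: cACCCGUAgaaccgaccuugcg

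Counted from 1 at the 5′ end, miR-99a-5p differed from miR-100-5p by the single substitution A16U, with the first 15 and the last 6 bases identical. miR-99b-5p differed from miR-100-5p by 4 substitutions, A1C, U11A, A16C and U21C, none of them in the seed. How the counting treated reads with an error at base 16 is not given in the sources used here, so the split of reads between miR-99a and miR-100 is uncertain.

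The miR-125 seed was carried by both miR-125 5p members and, outside the families, by miR-351-5p, which is encoded on the X chromosome and is shown because its level bears on the summed seed below.
miR-125a-5p: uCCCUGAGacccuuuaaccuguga
miR-125b-5p: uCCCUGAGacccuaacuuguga
miR-351-5p: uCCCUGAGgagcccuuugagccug

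miR-125a-5p and miR-125b-5p were identical over the first 13 bases, whereas miR-351-5p matched either of them only over the first 8. The opposite strands have seeds of their own and belong to neither 5p seed group. They are shown with let-7e-5p, the miRNA encoded between the miR-99b and miR-125a genes.
miR-99b-3p: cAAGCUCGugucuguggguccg
miR-125a-3p: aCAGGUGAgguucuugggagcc
let-7e-5p: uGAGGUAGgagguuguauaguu

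The members came from 3 clusters, all on the plus strand (GRCm38, GENCODE M21). On chromosome 17, Mir99b (17830188 to 17830257), Mirlet7e (17830352 to 17830444) and Mir125a (17830812 to 17830879) lie within 692 bases of the protein-coding gene Spaca6, the first 2 in an intron and Mir125a overlapping an annotated exon. On chromosome 9, Mir100 (41531425 to 41531504), Mirlet7a-2 (41536716 to 41536811) and Mir125b-1 (41581926 to 41582002) are spread over 50578 bases. They lie within the noncoding host gene Mir100hg of RefSeq and, in GENCODE, in introns of 3110039I08Rik and Gm49317. Mir100 also overlaps an exon of a noncoding gene on the opposite strand, Gm48742, and Mir125b-1 an exon of Gm28119 on its own strand. On chromosome 16, Mir99a (77598936 to 77599000), Mirlet7c-1 (77599657 to 77599750) and Mir125b-2 (77646273 to 77646343) span 47408 bases in introns of Mir99ahg. Mature miR-125b-5p is made from both Mir125b genes, and its counts cannot be divided between chromosomes 9 and 16.

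The Mir125a hairpin, 68 bases at chr17:17830812-17830879, is given with its mature strands in capitals, because the ratio of these strands is measured below.
Mir125a: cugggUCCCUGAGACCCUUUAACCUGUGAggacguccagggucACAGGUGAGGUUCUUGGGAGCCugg

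Together the 7 members took 0.942% of the counts in RB18 serum and 0.515% in RB20 serum. The share was 0.319% and 0.316% in 2i, and 0.207% and 0.263% in R2i, for RB18 and RB20 respectively. Both serum libraries thus lay above all 4 ground-state libraries. By mean CPM over the 6 libraries, here scaled by the library totals alone, miR-99b-5p ranked 42 among the 1907 miRNAs and miR-125a-5p 75. miR-100-5p ranked 171, miR-125b-5p 217, miR-99b-3p 334, miR-125a-3p 361 and miR-99a-5p 412.

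**Figure D1:**
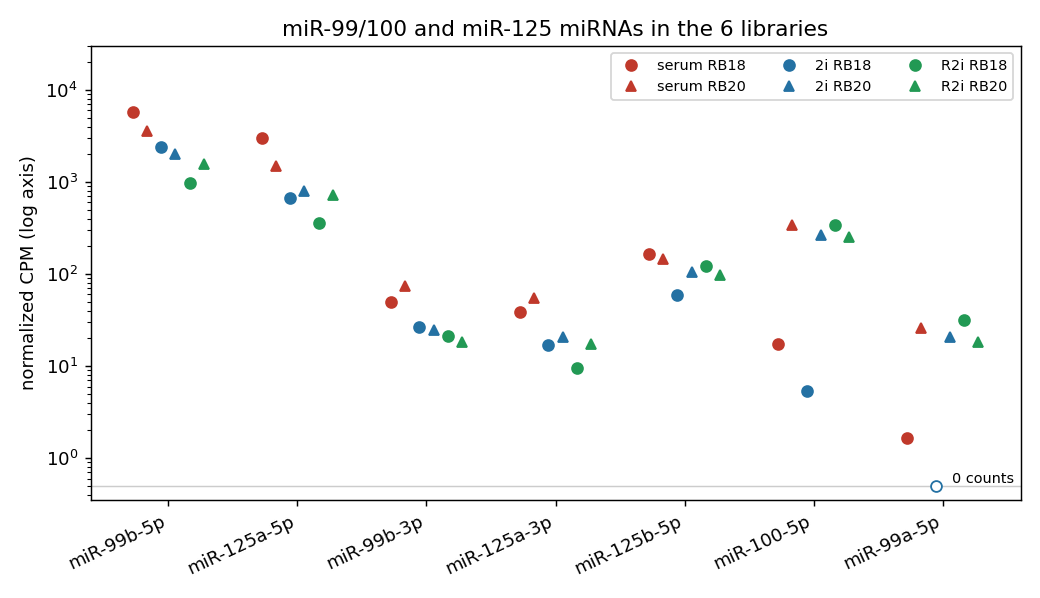
Normalized CPM of the 7 members (log axis) in each library, with colour for the medium, circles for RB18 and triangles for RB20. The 4 miRNAs of the Spaca6 cluster are highest in serum, whereas miR-100-5p and miR-99a-5p are low in the RB18 serum and RB18 2i libraries only (miR-99a-5p has 0 counts in RB18 2i, open circle).

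The 4 members encoded within Spaca6 were lower in the ground-state media, and both strands of each hairpin moved this way. miR-99b-5p, the most abundant member, stood at 5739 normalized CPM in RB18 serum and 3584 in RB20 serum. It reached 2416 and 2018 under 2i and 964.6 and 1576 under R2i, again for RB18 and RB20. All serum values exceeded all 2i values, and all 2i values exceeded all R2i values, as they did for 29.9% of the tested miRNAs in the latter comparison. The mean was 4661 ± 1524 (SD, n = 2) in serum, 2217 ± 281.3 in 2i and 1270 ± 432.5 in R2i.

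miR-125a-5p had 2981 and 1499 normalized CPM in RB18 and RB20 serum. Its levels were 668.9 and 797.5 in 2i and 360.1 and 722.0 in R2i. The serum libraries were again above the rest, with means of 2240 ± 1048, 733.2 ± 90.95 and 541.0 ± 255.9 (SD, n = 2) in serum, 2i and R2i, but the values of 2i and R2i overlapped. RB18 serum was the highest library for both of these 5p strands and RB18 R2i the lowest.

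The 3p strands were far less abundant. miR-99b-3p stood at 49.81 and 73.34 normalized CPM in serum, 26.72 and 24.42 under 2i and 21.44 and 18.3 under R2i. For miR-125a-3p these levels were 38.86 and 55.5, 17.0 and 20.75, and 9.432 and 17.44. Unlike the 5p strands, both 3p strands were highest in RB20 serum.

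let-7e-5p, the cluster's let-7 member, had 175.7 and 133.3 normalized CPM in serum, 80.63 and 88.2 under 2i and 44.59 and 55.47 under R2i. Its order of media was that of miR-99b-5p, with no overlap between media. Both serum libraries lay above all ground-state libraries for 32.4% of the tested miRNAs, and both 2i above both R2i libraries for 29.9%. How many miRNAs had the full order was not counted. The other strand of this hairpin, let-7e-3p, had at most 6 counts in any library.

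**Figure D2:**
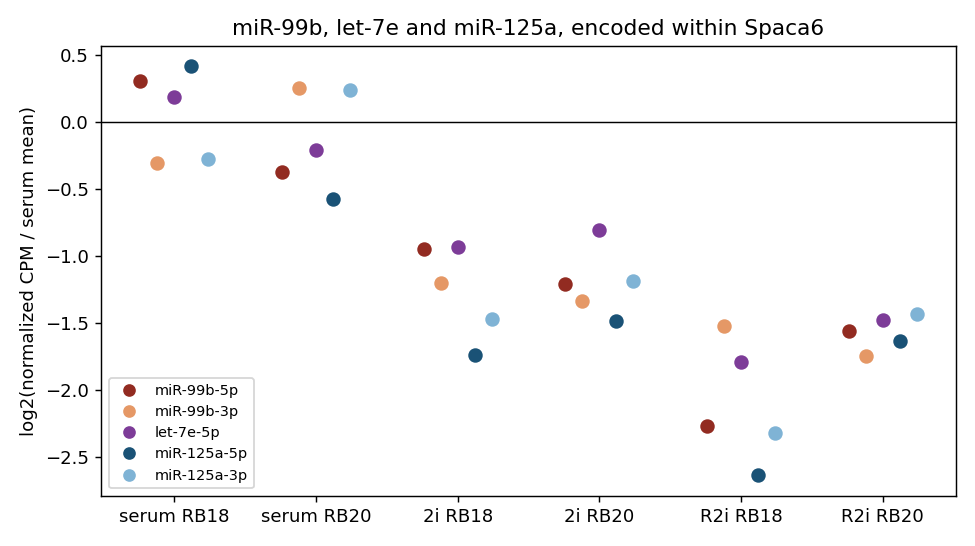
Level of the 5 miRNAs encoded within Spaca6 in each library, as log2 of normalized CPM over the mean of the serum libraries. All points of the ground-state libraries lie below all points of the serum libraries, and RB18 in R2i holds the lowest values of all but miR-99b-3p.

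For 2i against serum, edgeR's quasi-likelihood test over all 571 miRNAs, with calls limited to changes over 2-fold whose p stayed under 0.01 after Benjamini-Hochberg adjustment, called 1 of the 7 members lower. In this comparison 17.3% of the tested miRNAs were called lower. The member was miR-99b-3p, with a log2 fold change of -1.27 (SE 0.28, edgeR adjusted p = 0.00613). With the cell line as a block it was no longer called (log2 fold change -1.26, edgeR adjusted p = 0.0145), whereas miR-125a-3p was (-1.31, edgeR adjusted p = 0.00934). The log2 fold change of miR-99b-5p was -1.07 (SE 0.33, edgeR adjusted p = 0.0292) and that of miR-125a-5p was -1.61 (SE 0.43, edgeR adjusted p = 0.016). Neither passed, nor did let-7e-5p at -0.87 (SE 0.25, edgeR adjusted p = 0.0225). This count is sensitive to the libraries used: it was 0 without RB18 in 2i, RB20 in 2i or RB20 in R2i, and 2 without RB20 in serum or RB18 in R2i.

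For R2i against serum, 4 of the 7 members were called lower, where 15.6% of the tested miRNAs were. They were the 4 strands from Spaca6, which come from neighbouring hairpins of the same cluster and are not separate loci. miR-99a-5p, miR-100-5p and miR-125b-5p, from the other clusters, were not called. miR-99b-5p fell 3.67-fold (log2 fold change -1.87, SE 0.34, edgeR adjusted p = 0.00287) and miR-125a-5p fell 4.13-fold (log2 fold change -2.05, SE 0.44, edgeR adjusted p = 0.00624). The 3p strands fell 3.14-fold for miR-99b (edgeR adjusted p = 0.00224) and 3.3-fold for miR-125a (edgeR adjusted p = 0.00527). let-7e-5p was called as well, at 3.06-fold lower (edgeR adjusted p = 0.00154). With the cell line as a block, 2 of the 7 remained called. miR-99b-5p (log2 fold change -1.85, edgeR adjusted p = 0.0102) and miR-125a-5p (-2.07, edgeR adjusted p = 0.0201) then missed the limit. Without RB18 in serum or RB18 in R2i the count was 1, and without RB20 in serum it was 2. The change of miR-125a-5p was -1.37 on the log2 scale without RB18 in serum (edgeR adjusted p = 0.0332).

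With both ground-state media set against serum, the same 4 strands were called among the members, all lower. Of the tested miRNAs 37.0% were called in either direction, 114 of 571 lower. The log2 fold changes were -1.47 (SE 0.28) for miR-99b-5p, -1.46 (SE 0.23) for miR-99b-3p, -1.83 (SE 0.35) for miR-125a-5p and -1.52 (SE 0.29) for miR-125a-3p. let-7e-5p, at -1.24 (SE 0.21, edgeR adjusted p = 0.00173), was also called. The block left miR-125a-5p just outside the limit (-1.85, edgeR adjusted p = 0.0116) and kept the other 3 members, and without RB18 in serum 2 members were called, with miR-125a-5p at -1.15 (edgeR adjusted p = 0.0331). The 4 changes had the same direction within each line. miR-125a-5p differed by -2.16 (2i) and -3.05 (R2i) on the log2 scale in RB18, and by -0.91 and -1.05 in RB20. miR-99b-3p differed by -0.90 (2i) and -1.22 (R2i) in RB18 and by -1.59 and -2.0 in RB20. The line with the larger difference was thus not the same for all strands, and a test of the difference between lines called none of the members (miR-125a-5p: 1.55, SE 0.62, edgeR adjusted p = 0.79).

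No member was called between R2i and 2i, where 0.35% of the tested miRNAs were called in either direction. At an unadjusted p under 0.05 there was 1 member of 7, against 18.2% of the tested miRNAs. It was miR-99b-5p, at a log2 fold change of -0.80 (SE 0.33, edgeR adjusted p = 0.26). DESeq2 called 0 members as well. Over the 7 members the median log2 fold change was -1.07 in 2i and -1.65 in R2i against serum, and -0.38 for R2i against 2i. Over all tested miRNAs these medians were -0.032, -0.074 and -0.013. The 2i, R2i and ground-state comparisons share their serum libraries and are not independent of each other.

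**Figure D3:**
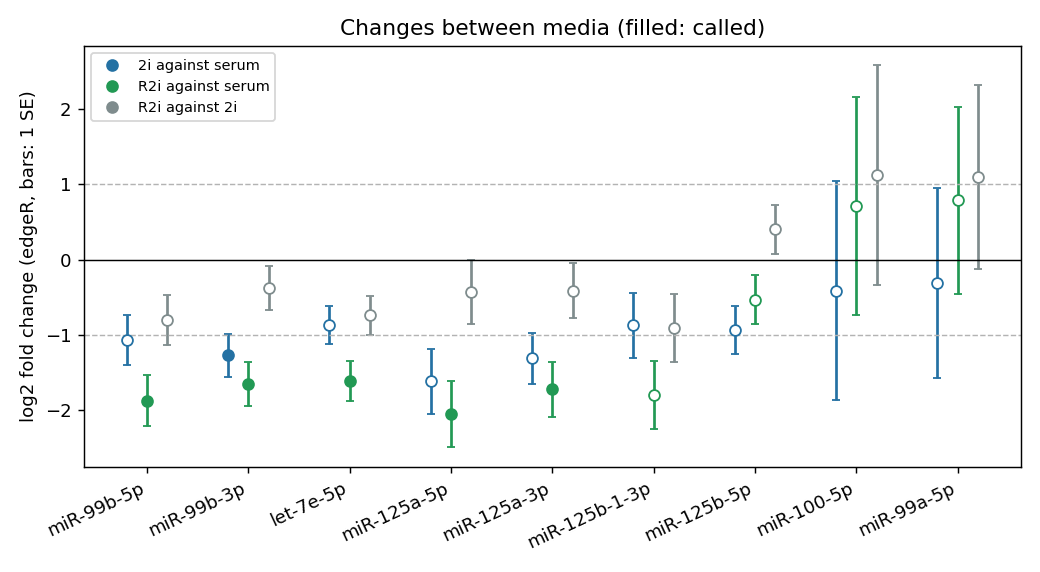
Log2 fold changes of the 7 members, let-7e-5p and miR-125b-1-3p for 2i against serum (blue), R2i against serum (green) and R2i against 2i (grey), with bars of 1 SE from edgeR and filled points for called changes. The Spaca6 miRNAs lie below 0 with short bars, and the bars of miR-100-5p and miR-99a-5p cross 0 in all 3 comparisons.

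The ratio of the strands of a hairpin does not depend on how libraries are scaled. The 3p strand made up 0.86% of miR-99b counts in RB18 serum (95% Wilson interval 0.701 to 1.06) and 2.01% in RB20 serum (1.71 to 2.35). In the 4 ground-state libraries it ranged from 1.09% to 2.17%, inside the span of the serum pair for all but RB18 in R2i, which rested on 25 counts of miR-99b-3p. For miR-125a the 3p share was 1.29% (1.02 to 1.62) in RB18 serum and 3.57% (2.98 to 4.28) in RB20 serum, and 2.36% to 2.55% in the ground-state libraries. The serum libraries therefore differed from each other more than the means of the media did. The log2 ratio of 5p to 3p counts changed by -0.03 for miR-99b and -0.21 for miR-125a from serum to the ground-state media (exact permutation tests, two-sided, p = 0.933 and 0.667), and 4 libraries against 2 cannot give a p below 0.133.

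The miRNAs of the cluster were also set against each other. miR-99b-5p outnumbered miR-125a-5p by 1.93 and 2.39 to 1 in serum (RB18, RB20), 3.61 and 2.53 in 2i, and 2.68 and 2.18 in R2i. The mean log2 ratio was 0.33 higher in the ground-state media (exact permutation test, two-sided, p = 0.267), and the values of serum and R2i overlapped. The ratio of let-7e-5p to miR-125a-5p was 0.55 higher on the log2 scale (exact permutation test, two-sided, p = 0.267). Neither p was the smallest that these 6 libraries allow.

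miR-125b-5p, the other miR-125 member, passed in no comparison. It stood at 165.8 and 146.7 normalized CPM in serum, 58.78 and 104.7 under 2i and 120.9 and 96.64 under R2i. Both serum libraries were above the other 4, but the lowest library was RB18 in 2i rather than an R2i library. The log2 fold change was -0.93 for 2i (SE 0.32, edgeR adjusted p = 0.0417), -0.53 for R2i (SE 0.32, edgeR adjusted p = 0.225) and -0.73 for both (SE 0.27, edgeR adjusted p = 0.0525). In all, 5 of the 7 members had both serum libraries above every ground-state library, as did 32.4% of the tested miRNAs.

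The opposite strands of the Mir125b hairpins are distinct and separate the genes. miR-125b-1-3p, from chromosome 9, had 136 and 107 counts in serum, 57 and 135 under 2i and 10 and 88 under R2i. miR-125b-2-3p, from chromosome 16, had 9 counts in RB18 serum and at most 5 elsewhere. In normalized CPM, miR-125b-1-3p had 74.44 and 53.02 in serum, 27.69 and 41.2 under 2i and 8.574 and 25.16 under R2i, and RB18 in R2i was the lowest. Its log2 fold change for R2i against serum was -1.79 (SE 0.45), which did not pass (edgeR adjusted p = 0.014). Of the 4 opposite strands that are not members, it alone was abundant enough to test. miR-99a-3p had 1 count over all libraries and miR-100-3p at most 2 in any.

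In serum and 2i, miR-100-5p was far lower in the RB18 library than in the RB20 library, which was not the case in R2i. In counts, RB18 held 32 in serum, 11 in 2i and 401 in R2i, whereas RB20 held 694, 865 and 873. In normalized CPM these were 17.51, 5.343 and 343.8 for RB18 and 343.9, 264.0 and 249.6 for RB20. Thus 4 of the 6 libraries lay between 249.6 and 343.9, and the RB18 serum and RB18 2i libraries stood far below them. RB18 in R2i, the shallowest library of all, was among the high ones. With a single library per line and medium, differences between lines cannot be told apart from differences between pools or libraries. Lines and media are given here as the sample titles name them. Whether each library holds the line and medium in its title was not tested.

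miR-99a-5p had the same pattern at a lower level: 3, 0 and 37 counts in serum, 2i and R2i of RB18, and 52, 68 and 64 in RB20. The 0 counts in RB18 2i allow a level of up to 1.46 CPM. In normalized CPM, RB18 had 1.642, 0.0 and 31.72 and RB20 had 25.77, 20.75 and 18.3. Both miRNAs are encoded on different chromosomes, 9 and 16.

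**Figure D4:**
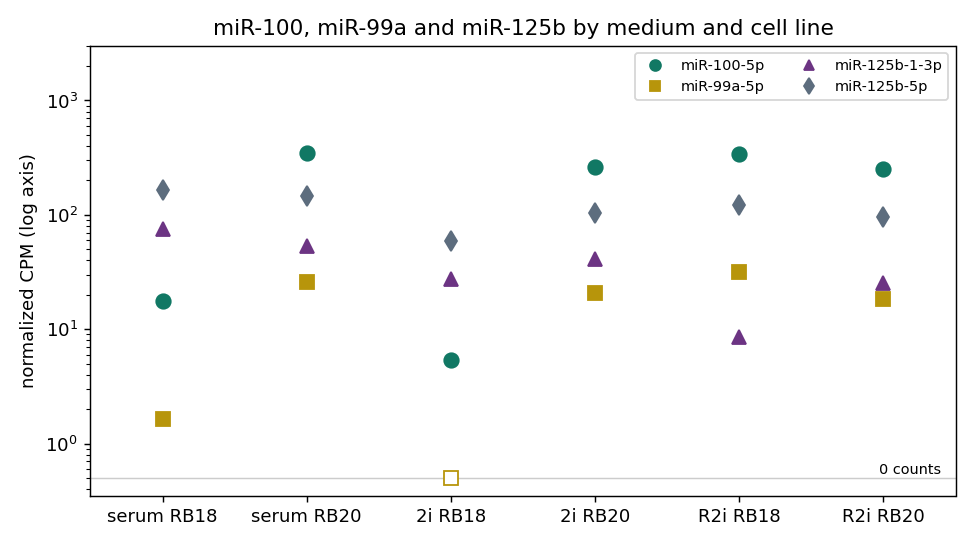
Normalized CPM (log axis) of miR-100-5p, miR-99a-5p, miR-125b-1-3p and miR-125b-5p by library. miR-100-5p and miR-99a-5p are both low in RB18 serum and RB18 2i, where miR-125b-5p and miR-125b-1-3p are within 2-fold of their RB20 levels.

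The RB20 level of miR-100-5p was 19.6 times the RB18 level in serum, 49.4 times in 2i and 0.726 times in R2i. Ranked by the size of the log2 difference between lines (1 CPM added), miR-100-5p came 1st and miR-99a-5p 2nd of 571 miRNAs in serum, and again in 2i. In R2i they ranked 208 and 97. In serum 15.8% of the tested miRNAs differed more than 2-fold between lines, in 2i 7.01% and in R2i 9.46%. No test of one medium alone is possible with 1 library per line.

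Across all 6 libraries, in an edgeR fit with medium and line, 0 of the 7 members were called between RB20 and RB18, and 0.0% of the tested miRNAs were. At an unadjusted p under 0.05 there were 0 members and 6.3% of the tested miRNAs, and DESeq2 called 0 members too. The estimate was 3.11 for miR-100-5p (SE 1.34, edgeR adjusted p = 0.741) and 1.78 for miR-99a-5p (SE 1.13, edgeR adjusted p = 0.831), on the log2 scale. This comparison depends on single libraries. Without RB18 in R2i both were called, at 4.78 and 4.77, and without RB20 in R2i likewise, at 4.88 and 4.85. Over all miRNAs these fits called 4 of 603 and 4 of 604. In them the line difference comes from serum and 2i alone, with 1 residual degree of freedom. Without RB18 or RB20 in serum the estimate for miR-100-5p was 1.88 and 1.89. There the line difference comes from 2i and R2i alone, again with 1 residual degree of freedom. These media went opposite ways, with an RB20 level of miR-100-5p 49.4 times the RB18 level in 2i and 0.726 times in R2i. A test of whether the ground-state change differed between lines called 0 of 571 miRNAs (miR-100-5p: -3.72, SE 2.68, edgeR adjusted p = 0.836).

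Between media, neither miRNA passed. miR-100-5p had log2 fold changes of -0.41 for 2i (SE 1.45, edgeR adjusted p = 0.827) and 0.71 for R2i (SE 1.45, edgeR adjusted p = 0.746), and miR-99a-5p of -0.31 (SE 1.26) and 0.79 (SE 1.24). These standard errors were several times those of the Spaca6 miRNAs. Within RB20, miR-100-5p differed by -0.38 (2i) and -0.46 (R2i) from serum on the log2 scale, whereas within RB18 it differed by -1.71 and 4.30. For R2i against serum the averaged change of miR-100-5p thus matched neither line, whereas for 2i against serum it was close to that within RB20.

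Because base 16 alone separates them, the share of miR-99a-5p in the sum of miR-99a-5p and miR-100-5p was followed. It was 8.57% in RB18 serum (95% Wilson interval 2.96 to 22.4) and 6.97% in RB20 serum (5.36 to 9.03). RB20 had 7.29% in 2i and 6.83% in R2i, and RB18 had 8.45% in R2i. RB18 in 2i had 0 of 11, where the upper end of the 95% Wilson interval was 25.9%. The intervals of the shares overlapped. In RB18 serum and RB18 2i, where the level was low, the shares rested on 35 and 11 counts. These are too few to tell whether the ratio was kept while the level varied. Whether part of the miR-99a-5p counts are misread or misassigned miR-100-5p was not tested. Counting both as 1 miRNA changed no count of members called in any comparison.

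On chromosome 9, miR-125b-1-3p is the tested strand made from that cluster alone besides miR-100-5p, and it did not share the pattern of miR-100-5p. The ratio of miR-100-5p to miR-125b-1-3p, whose genes lie in one host gene, was 0.235 in RB18 serum and 0.193 in RB18 2i, but 6.49 and 6.41 in RB20 serum and 2i. In R2i it was 40.1 for RB18 and 9.92 for RB20. The ratio was thus alike in serum and 2i within each line, and higher in R2i in both. Each value comes from 1 library, and in RB18 it rests on 11 counts of miR-100-5p in 2i and 10 of miR-125b-1-3p in R2i. Whether the ratio differed between media was not tested. let-7a-5p, which is made from several genes including the one between Mir100 and Mir125b-1, had between 302.7 and 496.0 normalized CPM in all 6 libraries. let-7c-5p, from Mirlet7c-1 beside Mir99a and a further gene, ranged from 122.6 to 194.4.

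Of the 8 let-7 strands listed as cluster neighbours, 5 were tested. For 2i against serum 0 were called, and for R2i against serum and for both ground-state media 1 was called lower, let-7e-5p. Over all tested miRNAs 17.3% were called lower in 2i, 15.6% in R2i and 114 of 571 for both media. The list's median log2 fold change was 0.42 for 2i and -0.12 for R2i. let-7a-5p stood at 0.42 for 2i (SE 0.25, edgeR adjusted p = 0.197) and 0.36 for R2i (SE 0.25, edgeR adjusted p = 0.298), and let-7c-5p at 0.18 (SE 0.26) and -0.12 (SE 0.26). let-7a-1-3p and let-7c-2-3p, from let-7 genes outside these clusters, were tested and not called. The strands specific to the clusters on chromosomes 9 and 16, let-7a-2-3p and let-7c-1-3p, had 0 counts in every library. Among the tested strands of this list, let-7e-5p alone comes from 1 of the members' clusters and from no other gene.

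Summed over its carriers among the 1623 miRNAs of the table with a RefSeq sequence, the miR-99/100 seed had 5758 and 3953 normalized CPM in serum, 2421 and 2303 under 2i and 1340 and 1844 under R2i (RB18, RB20). miR-99b-5p supplied between 72.0% and 99.8% of this sum, so the sum followed Spaca6 in every library. RB18 in R2i had the smallest share of miR-99b-5p and RB18 in 2i the largest. In RB18 serum and RB18 2i, where miR-100-5p was low, miR-99b-5p supplied 99.7% and 99.8% of the sum.

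For the miR-125 seed the sums were 4129 and 2217 in serum, 1635 and 1956 under 2i and 1055 and 1963 under R2i. In both lines the sum was highest in serum, but the sums of RB20 lay closer together in the 3 media than those of RB18. miR-125a-5p supplied 72.2% and 67.6% of the sum in serum, and 34.1% to 40.9% in the ground-state libraries. miR-351-5p supplied 23.8% and 25.8% in serum and between 53.9% and 58.3% in the other libraries. The most abundant carrier of the seed was thus miR-125a-5p in both serum libraries and miR-351-5p in all 4 ground-state libraries.

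**Figure D5:**
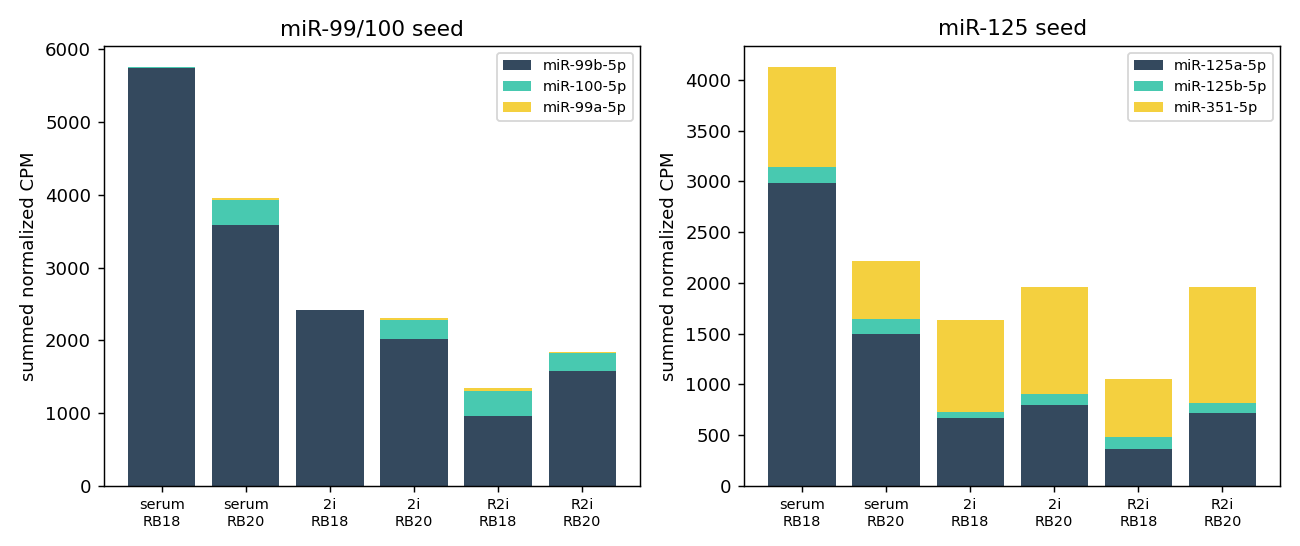
Summed normalized CPM of the miRNAs that carry the miR-99/100 seed (left) and the miR-125 seed (right) in each library, with the bars divided by miRNA. On the left miR-99b-5p fills most of each bar, and on the right miR-351-5p fills over 50% of each ground-state bar (53.9% to 58.3%).

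miR-351-5p itself was not called in any comparison. It had 981.9 and 571.3 normalized CPM in serum, 907.4 and 1054 under 2i and 574.5 and 1144 under R2i, and the media overlapped. Its log2 fold change was 0.34 for 2i (SE 0.39, edgeR adjusted p = 0.504) and 0.15 for R2i (SE 0.39, edgeR adjusted p = 0.805). The other miRNAs found to share a seed with a member were miR-6367 and miR-6394, with 0 counts, and miR-99a-3p, which carries the seed of miR-99b-3p and had 1 count.

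The miR-10 family, whose mature sequences resemble miR-99/100, was examined as the nearest related family. Of its 4 strands 2 were tested, and 1 was called lower in both media against serum. Over all tested miRNAs 17.3% were called lower in 2i and 15.6% in R2i. The called strand was miR-10a-5p. It had 397.4 and 541.1 normalized CPM in serum, 21.86 and 39.37 under 2i and 68.59 and 133.0 under R2i. The log2 fold change was -3.92 in 2i (SE 0.45, edgeR adjusted p = 0.000215) and -2.20 in R2i (SE 0.41, edgeR adjusted p = 0.00324). miR-10b-5p was not called. Unlike the Spaca6 miRNAs, miR-10a-5p was lowest in 2i rather than in R2i.

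The miRNAs most like the leading member of each 5p seed group were ranked by the root mean square difference of their centred log2 levels over the 6 libraries. Nearest to miR-99b-5p of 564 miRNAs were miR-500-3p (0.21), let-7e-5p (0.21), miR-24-2-5p (0.25), miR-501-3p (0.26) and miR-146a-5p (0.27). For miR-125a-5p they were miR-24-2-5p (0.21), miR-23a-3p (0.27), miR-500-3p (0.28), miR-674-5p (0.31) and miR-501-3p (0.32). miR-99b-5p and miR-125a-5p were 0.28 apart. miR-99b-5p was 0.77 from miR-125b-5p and 2.80 from miR-100-5p, its own seed partner. These distances describe 6 libraries that share their scaling and carry no test.

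Markers of other cell types were examined beside these results. The 5 fibroblast and mesenchyme markers summed to 1431 and 2046 normalized CPM in serum, against 3329 and 3651 under 2i and 2414 and 2422 under R2i, and 0 of the 4 tested were called. miR-143-3p supplied most of the sum, with 1317 and 1877 normalized CPM in serum, 3113 and 3378 under 2i and 2120 and 2208 under R2i. The part of this list in the Spaca6 results was not tested. The 3 muscle markers summed to 79.36 and 46.58 in serum, 0.4857 and 0.3052 under 2i and 7.717 and 4.003 under R2i. Both tested muscle markers were called lower against serum in 2i and in R2i, where 17.3% and 15.6% of the tested miRNAs were. The part of the muscle markers in the results was not tested. The 3 neural markers summed to between 773.4 and 1077 and 0 were called in any comparison. The 4 endoderm markers summed to between 1409 and 2470, without a call.

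The 5 blood markers summed to 2525 and 2839 in serum, 4789 and 1796 under 2i and 745.1 and 325.4 under R2i. Of the 3 tested, miR-451a was called higher in 2i and in R2i, and miR-142a-5p was called lower in R2i. Over all tested miRNAs, 96 of 571 were called higher in 2i and 86 in R2i, and 15.6% were called lower in R2i. miR-142a-5p supplied most of the sum, at 2277 and 2581 in serum, 4434 and 1663 under 2i and 629.4 and 276.5 under R2i. miR-223-3p, a myeloid marker, had 0 counts. miR-199a-5p, a mesenchymal marker singled out after its values were seen, had 11.49 normalized CPM in RB18 serum. It had 62.18 to 126.0 in the other 5 libraries, with 62.18 in RB18 2i, where miR-100-5p was lowest. On the same list, miR-143-3p (1317) and miR-199a-3p (31.75) were also lowest in RB18 serum. By contrast, miR-145a-5p had 66.77 there against 44.6 in RB20 serum, and miR-214-3p had 6 counts against 0. The part of these cell types in the level of miR-100-5p was not tested.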

How the data were processed

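Small RNA of 3 media and 2 ESC lines (6 libraries) was measured. The submitters' processing notes name FastQC 0.11.5, cutadapt 1.3, Bowtie 1.1.2, featureCounts 1.5 and mm10, without parameters. The authors deposited raw counts for 1907 mature miRNAs, and log2 values for the 1233 miRNAs with a count, which equal log2(count / size factor + 1) within 0.005. No column of values was left unused (0).

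Counts that passed filterByExpr (minimum count 10, minimum total 15) were scaled by TMM and tested in R 4.3.3 with edgeR 4.0.16, by a quasi-likelihood fit of all 6 libraries with 1 coefficient per medium. A call needs a Benjamini-Hochberg adjusted p under 0.01 over all 571 tested miRNAs and more than 2-fold. The SE was obtained from the log2 fold change and the F statistic (their ratio, F under the root), and the common biological coefficient of variation was 24.6%. With 2 libraries a medium, p-values rest on the spread shared between miRNAs. The test was tried on simulated counts first. Ratios were tested by exact permutation over libraries, and shares have 95% Wilson intervals.

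Libraries were paired by cell line, which the sample titles name. Deviations from the medium means correlated at 0.211 (serum and 2i), -0.128 (serum and R2i) and 0.243 (2i and R2i) over 571 miRNAs. The line was kept out of the model, since the study merged the lines, and entered as a block in an alternative. Alternatives were DESeq2 1.42.0, library totals, other filters and limits, limma 3.58.1 on the deposited log2 values, only the media compared, and leaving out libraries. The line comparison, the summed miR-99a and miR-100 row and the fit without RB18 in serum and 2i were added after the data were seen.

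Named are all 7 members, the let-7 neighbours, the opposite strands, the miRNAs found to share a member's seed, the called miR-10 miRNAs, the 5 miRNAs nearest in pattern, and the marker lists; miR-199a-5p was singled out after its values were seen. The members and lists were chosen with earlier results of these data known. Sequences are from RefSeq, where all 7 members and 1623 of 1907 names matched. The tables used scipy 1.17.1, numpy 2.4.6 and pandas 2.3.3, the figures matplotlib 3.10.9, under Python 3.11.15.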

Additional observations from a re-analysis of the deposited data

How the results depend on the processing

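For 2i against serum, 1 member was called, and the count was 3 with DESeq2, 2 with library totals, 4 without a filter on low counts, 4 at an adjusted p under 0.05, 0 with only the media compared, 0 without RB18 in serum and 2i together, and 0 to 2 without single libraries. For R2i against serum it was 4, fell to 2 with the cell line as a replicate block, and ran from 1 to 4 without single libraries. For both ground-state media it was 4 and ran from 2 to 4 without single libraries, and between R2i and 2i it was 0 in every alternative run. Between RB20 and RB18 it was 0, and ran from 0 to 2 without single libraries. Apart from the changes of call given beside the results, the block changed no call of a member. The calls over all miRNAs moved with these settings too. For 2i against serum, in either direction, they were 195 of 571 in the main fit, 219 with DESeq2 and 202 with library totals. They were 254 of 1233 without the filter, 257 of 571 at an adjusted p under 0.05, and 169 of 549 with only the media compared. For R2i against serum they fell from 175 to 155 of 571 with the block.

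The 4 Spaca6 strands were negative against serum in every alternative run. The change in the log2 ratio of 5p to 3p counts from serum to the ground-state media was -0.03 for miR-99b, and 0.20 with 2i alone. It ran from -0.65 to 0.59 without single libraries. For miR-125a this change was -0.21 and ran from -0.96 to 0.54. For 2i against serum without single libraries, miR-99a-5p ran from -7.88 to 2.69 and miR-100-5p from -5.06 to 2.90. The lower ends for miR-99a-5p rest on RB18 in 2i with 0 counts and depend on the prior count of the fit. For R2i against serum miR-100-5p reached -0.10 without RB18 in serum, and 4.03 at the upper end. For both media miR-99a-5p ran from -3.54 to 3.24 and miR-100-5p from -2.18 to 3.47. Without RB18 in serum and 2i together, miR-99a-5p was -0.02 for R2i and -0.12 for both media, and miR-100-5p was -0.13 and -0.21. Between lines, library totals turned miR-99b-3p to -0.05, miR-125a-5p to -0.06 and miR-125b-5p to -0.05. Without single libraries the line difference ran from -0.54 to 0.18 for miR-99b-5p, -0.21 to 0.25 for miR-99b-3p, -0.44 to 0.59 for miR-125a-5p and -0.36 to 0.34 for miR-125b-5p. The cause of these changes was not tested.

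For R2i against serum, the median over all 571 miRNAs shifted by 0.107 (log2) with library totals. Depth limits miR-99a-5p most, at 0 and 3 counts in 2 libraries.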
